A study of Mus musculus with 8 samples.

Results

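Oncostatin M (OSM) was compared with control in cultured mouse myotubes, the multinucleated fibres that form when muscle precursor cells (myoblasts) fuse. The comparison takes 4 of the 8 libraries of the series, 2 from myotubes treated with OSM and 2 from controls, chosen by their labels alone. Primary myoblasts of genotype WT came from limb muscles of pups aged 2 to 3 days and were differentiated in medium with 5% horse serum. OSM was given for 48 h at 250 ng/ml, and the control label names no treatment or vehicle. All cells were harvested 72 h after differentiation. The other 4 libraries came from myotubes given leukaemia inhibitory factor (LIF) or interleukin 6 (IL6) at the same dose for the same time. All 8 libraries were fitted together, so these 4 also affect which genes were tested, the scaling and the spread behind the p-values. Their levels are given mainly where a direct test shows how OSM differs from them. The labels do not say whether the 2 libraries of a group are separate animals, pools of pups or dishes, so p-values measure only the spread between these libraries, which may be technical.

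OSM is a cytokine of the interleukin 6 family. In mice it binds the OSM receptor, which pairs with the shared signalling subunit gp130, and the receptor-bound JAK kinases then phosphorylate STAT factors, chiefly STAT3, and start the MAP kinase cascade. STAT3 enters the nucleus and switches on genes that include its own inhibitor Socs3 and, in liver, the acute-phase proteins. In muscle, cytokines of this family are known both as signals between regenerating cells and as agents of wasting, and the series asks about OSM in the muscle wasting of cancer.

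Each library held between 29482077 and 30025471 counts in genes. Reads assigned to no gene, to several genes or to several places made up 11.7% to 12.7% of those recorded. Levels are given as CPM, a gene's share of the library's counts after TMM scaling, and changes as log2 of OSM over control, also where a value follows the word by. A gene is called when its adjusted p in edgeR's quasi-likelihood test is under 0.05. The skeletal muscle label held in the data: the 12 muscle markers, among them myosins, troponins and Myog, summed to 26174.8 to 26848.9 CPM in control and to 22922.6 to 22955.4 CPM with OSM. Of 14 macrophage markers, 10, including Adgre1, Csf1r and Ptprc, had under 10 counts in each of the 4 libraries. All 4 that were tested had a positive log2 change, and of these Cd68 and Mrc1 were called higher. The list's sum was 9.18 to 10.1 CPM in control and 15.7 to 17.3 CPM with OSM. The 14 fibroblast markers summed to 1941 to 2093 CPM in control and 2449 to 2579 CPM with OSM, with Ly6a, Pdgfra and Col3a1 called higher and Cd34 lower, while Dpt, Lum, Thy1, Tcf21 and Clec3b had under 10 counts in each of the 4. The part of these cells in the results below was not tested, and in bulk RNA fewer cells of a type and less RNA per cell cannot be told apart.

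OSM changed the level of 3305 of 15603 genes tested (21.2%), with 1669 higher (10.7%) and 1636 lower (10.5%). These shares are the background for the counts of list members given below. Most of these changes were small, since 1921 of the 3305, or 58.1%, were under 1.5-fold, and the median log2 change was 0.48 among the genes called higher and −0.51 among those called lower. A change of at least 2-fold was reached by 339 genes called higher (2.17%) and 422 called lower (2.7%). Beyond 4-fold the counts were 109 higher and 103 lower, and beyond 16-fold 16 higher and 5 lower. Of 2137 abundant genes, those whose mean reached 3000 counts, 330 were called higher and 267 lower, 22 and 5 of them by at least 2-fold. The number of calls fell to 1613 without OSM library 1 and to 1841 without OSM library 2, of which 1600 and 1800 were among the 3305, and was 2315 and 2810 without control libraries 1 and 2.

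**Figure D1:**
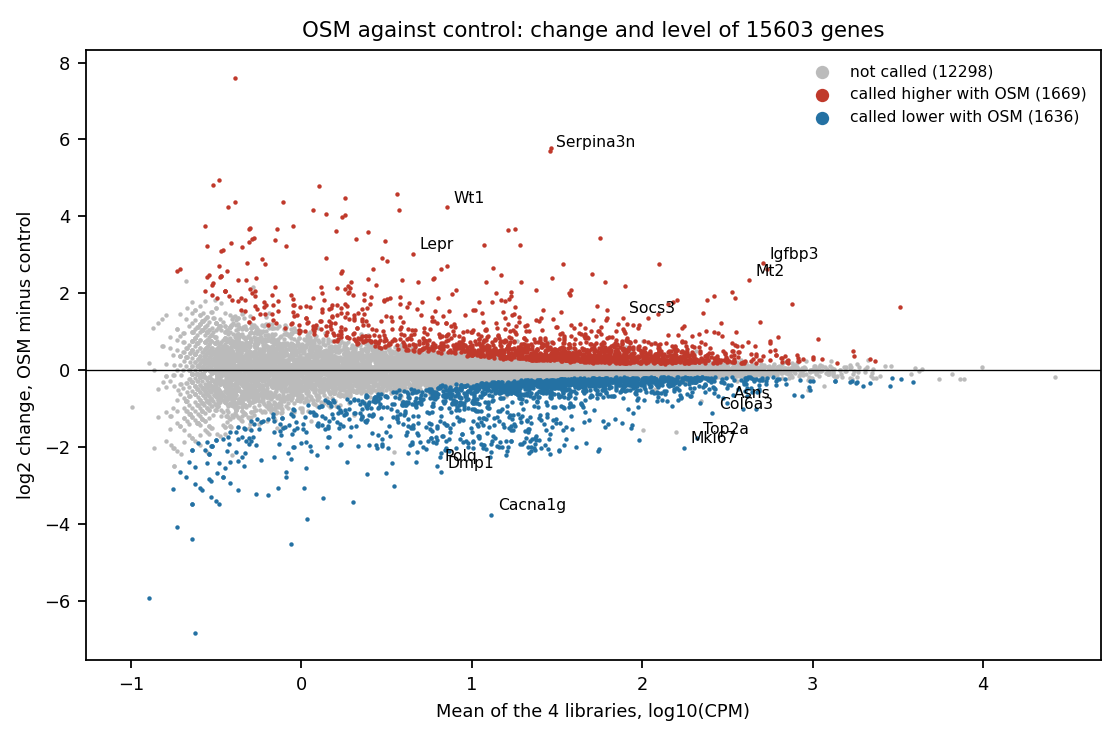
Each point is 1 of 15603 genes, with its mean over the 2 control and 2 OSM libraries on the x axis, as log10 of CPM, and its log2 change, OSM minus control, on the y axis. Red points are the 1669 genes called higher, blue points the 1636 called lower and grey points those not called; the points with the largest changes lie at low and middle levels.

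The largest rises, ranked among called protein-coding genes whose mean count reached 100, began with Serpinb2, Serpina3n, Prg4 and Wt1. Serpinb2, an inhibitor of plasminogen activators, stood at 1.17 and 0.9397 CPM in the control libraries and 65.5 and 49.3 CPM with OSM, a change on the log2 scale of 5.76 (SE 0.24, adjusted p 4.33e-08). Serpina3n, a protease inhibitor of the acute-phase response, rose from 0.7202 and 1.44 to 53.6 and 58.7 CPM, by 5.69 (SE 0.23, adjusted p 3.5e-08). Prg4, which encodes the joint lubricant lubricin, went from 0.343 and 0.235 to 7.01 and 7.01 CPM and changed by 4.58 (SE 0.25, adjusted p 5.2e-08). In these 3 genes and in Wt1, Rtn4rl2, Htr2a, Lepr and Prl2c3, both control libraries had under 100 counts. They reached the ranking's mean count of 100 only through the OSM libraries. Prg4 had 10 and 7 counts in control and 205 and 209 with OSM. It could enter the test only through treated groups where it was higher. Wt1, a zinc finger transcription factor of the developing kidney and mesothelium, rose from 0.823 and 0.604 to 14.02 and 13.01 CPM, by 4.24 (SE 0.19, adjusted p 1.48e-08). Rtn4rl2, a receptor of the Nogo receptor family, rose from 2.67 and 2.15 to 31.8 and 28.3 CPM, by 3.64 (adjusted p 5.08e-09), and Htr2a, a serotonin receptor, from 2.23 and 2.22 to 20.4 and 22.3 CPM, by 3.26 (adjusted p 2.87e-08). Ccbe1, a secreted protein needed for lymphatic vessel growth, rose from 2.78 and 4.46 to 33.6 and 35.8 CPM, by 3.25 (adjusted p 6.42e-08). Lepr, the leptin receptor, which like gp130 signals through JAK2 and STAT3, rose from 0.549 and 1.41 to 8.07 and 8.02 CPM, by 3.03 (adjusted p 2.3e-06). In these genes the OSM and control libraries did not overlap, which the ranking required, so this adds no support to the calls. Prl2c3, of the prolactin family, rose by 3.67 (adjusted p 0.000346), but 78.6% of its 50-base stretches also occur in relatives such as Prl2c2, so its counts are uncertain. Serpinb2 shares 12.4% of its exon bases with Serpinb10 on the same strand.

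The 8 largest rises among the abundant transcripts were in Igfbp3, Adamtsl4, Ecm1, Mt2, Sdc1, Sulf1, Mt1 and Timp3, of which the metallothioneins Mt1 and Mt2 and the inhibitor Timp3 are described with their lists below. Igfbp3, which binds insulin-like growth factors, rose from 129 and 131 CPM in the control libraries to 918 and 860.2 CPM with OSM, by 2.77 (SE 0.10, adjusted p 5.08e-09). Ecm1, a matrix glycoprotein, rose from 145 and 156 to 918 and 927 CPM, by 2.62 (adjusted p 3.92e-10), and Adamtsl4, a protein of fibrillin microfibrils, from 29.2 and 35.7 to 221 and 217 CPM, by 2.75 (adjusted p 4.32e-08). In all 3 the libraries of a group lay close together and far from those of the other group. This ranking too took only genes whose groups did not overlap, so the separation adds no support to the calls. Sdc1, the heparan sulphate proteoglycan syndecan 1, rose from 129 and 135 to 549.8 and 526 CPM, by 2.03 (adjusted p 1.05e-09). Sulf1, an enzyme that removes sulphate from heparan sulphate chains, rose from 102 and 118 to 414 and 415 CPM, by 1.92 (adjusted p 5.08e-09).

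The largest fall by the same ranking was in Cacna1g, which encodes a T-type calcium channel of the kind that opens at low voltage. It stood at 25.2 and 23.2 CPM in the control libraries and 1.61 and 1.95 CPM with OSM, a change on the log2 scale of −3.76 (SE 0.17, adjusted p 1.48e-08). Its close relative Cacna1h went the other way, from 29.4 and 26.8 to 39.1 and 35.5 CPM with a log2 change of 0.41 (adjusted p 0.00342), although that call was lost without OSM library 1 (adjusted p 0.0593). Ces2g, a carboxylesterase, fell from 5.01 and 7.38 to 0.718 and 0.805 CPM, at a log2 change of −3.02 (SE 0.28, adjusted p 4.9e-06), and Dmp1, a matrix protein of bone and dentin, from 9.16 and 13.6 to 1.78 and 1.84 CPM, at a log2 change of −2.65 (SE 0.23, adjusted p 2.58e-06). Fbxo48, an F-box protein, fell from 5.35 and 6.14 to 1.13 and 1.01 CPM, at a log2 change of −2.43 (adjusted p 2.67e-06). The other 8 genes among the 12 largest falls belong to cell division or DNA repair and are described with those genes below: Polq, Fanci, Shcbp1, Pbk, Ckap2l, Nsl1, Cdc25c and Esco2. Among abundant transcripts the largest falls were in Mki67 and Top2a, also genes of dividing cells, then in the collagens Col6a3, Col18a1 and Col4a1 and in Mthfd2, Asns and Phgdh, enzymes of one-carbon, asparagine and serine synthesis.

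**Figure D2:**
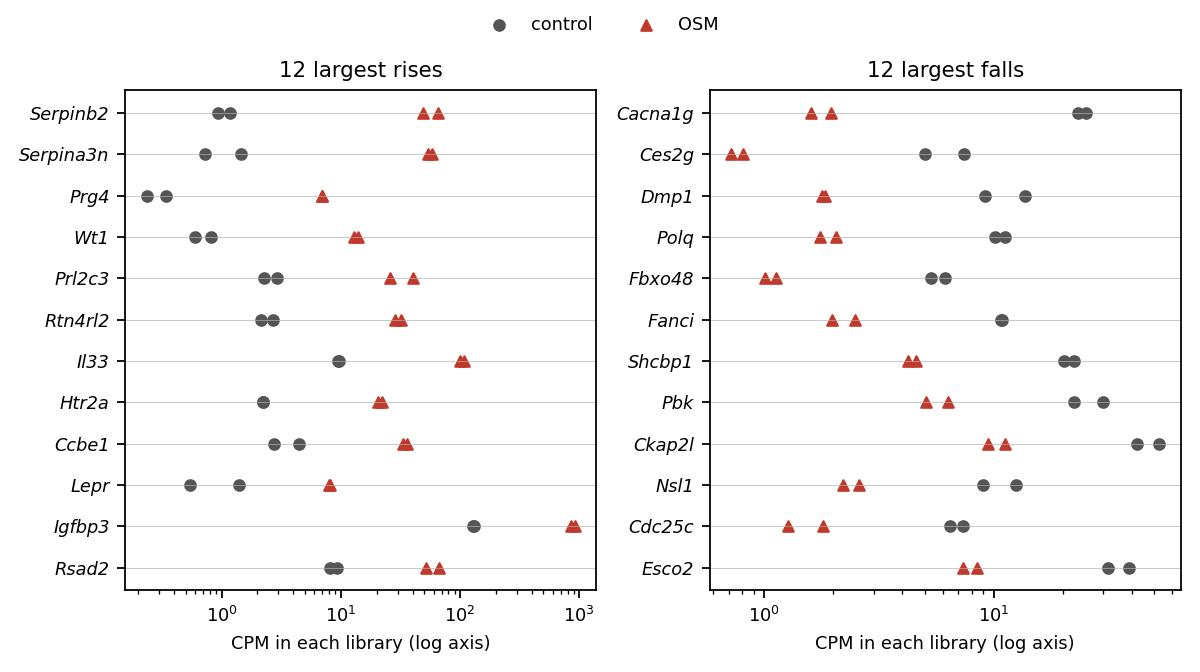
CPM in each library, on a log axis, of the 12 genes with the largest rises (left) and the 12 with the largest falls (right) among called protein-coding genes whose mean count reached 100; grey circles are the 2 control libraries and red triangles the 2 OSM libraries. The groups are separate in each gene, as the ranking required, with Igfbp3 the gene at the highest level among the rises and Cacna1g the gene with the largest fall.

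The receptors and signalling proteins that OSM works through changed moderately. Osm itself had 1 count in 1 control library and none in the other 3, and was not tested. Of 13 gp130 receptor and ligand genes tested, 3 were called higher and none lower, against 10.7% and 10.5% of all genes tested. Osmr, the receptor subunit specific to OSM, rose from 65.02 and 68.2 CPM in the control libraries to 95.8 and 108 CPM with OSM, by 0.61 (SE 0.08, adjusted p 0.000147). Il6ra, the IL6 receptor, rose from 5.25 and 5.07 to 9.85 and 10.9 CPM, by 1.01 (adjusted p 0.000156), and Lifr, the LIF receptor, from 82.6 and 103 to 123 and 131 CPM, by 0.45 (adjusted p 0.00417); the last call was lost without OSM library 2 (adjusted p 0.0519). Il6st, which encodes gp130, was at 613 and 521 CPM in the control libraries and 485 and 499 CPM with OSM, a log2 change of −0.20 (adjusted p 0.0643) that did not pass the test.

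Of 24 JAK kinases, STAT factors and their inhibitors tested, 13 were called higher and 1 lower, with a median log2 change of 0.27 against −0.0027 over all genes tested. Socs3, the inhibitor that STAT3 induces against its own receptor, rose from 41.5 and 44.1 CPM in the control libraries to 110.1 and 111 CPM with OSM, by 1.37 (SE 0.06, adjusted p 1.81e-08). Jak2 rose from 31.3 and 34.97 to 57.1 and 60.9 CPM, by 0.83 (adjusted p 4.78e-06), and Stat5a from 25.2 and 25.9 to 52.7 and 56.1 CPM, by 1.09 (adjusted p 2.68e-07). Jak1 and Stat3, the kinase and factor most used by gp130, rose by 0.27 (adjusted p 0.00411) and 0.27 (adjusted p 0.00405). Cish, another feedback inhibitor, was at 3.33 and 4.87 CPM in the control libraries and 5.06 and 6.37 CPM with OSM, with an adjusted p of 0.1. Of the 50-base stretches of Stat5a, 10.8% occur in Stat5b. The call of Stat3 was lost without OSM library 1 (adjusted p 0.0542), and without that library 8 members of the list were called higher.

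Genes that STAT3 is known to activate rose more often than they fell, 11 against 1 of 21 tested. Besides Serpina3n and Socs3 these were, by size, Timp1, Il4ra, Il13ra1, Cebpd, Junb, Mcl1, Bcl3, Hif1a and Stat3. Il4ra and Il13ra1, the pair of subunits that make a receptor for interleukins 4 and 13, rose from 62.7 and 73.6 to 243 and 224 CPM and from 112 and 126 to 337 and 335 CPM, by 1.78 (adjusted p 1.9e-08) and 1.49 (adjusted p 1.81e-08). Lbp, which binds bacterial lipopolysaccharide and is an acute-phase protein of liver, was the member that fell, from 14.7 and 22.4 to 6.05 and 7.24 CPM, at a log2 change of −1.48 (adjusted p 0.00186). The promoter of Socs3 is shown because it holds the sequence that STAT dimers bind, TTCNNNGAA, where N is any base; the motif reads the same on both strands. The 300 bases from 250 before to 50 after the start, from RefSeq on GRCm38.p6, lie at chr11:117969317-117969616 on the minus strand, and capitals mark the motif, 154 bases before the start.
Socs3: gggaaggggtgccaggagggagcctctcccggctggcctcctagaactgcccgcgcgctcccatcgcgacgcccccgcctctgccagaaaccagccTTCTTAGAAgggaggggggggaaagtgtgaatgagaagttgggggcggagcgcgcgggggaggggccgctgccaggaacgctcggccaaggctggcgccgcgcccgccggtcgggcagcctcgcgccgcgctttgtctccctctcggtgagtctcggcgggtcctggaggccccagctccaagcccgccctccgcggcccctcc
In all, 2 of the 22 promoters of this list in the RefSeq table held the motif, against 954 of the 14253 promoters of genes tested (6.69%), 140 of 1691 of genes called higher (8.28%) and 35 of 281 of genes called higher by at least 2-fold (12.5%). A match describes these letters in this window and shows no binding.

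Fast-responding transcription factors of the AP-1, C/EBP, KLF and EGR families were higher 48 h into treatment in 15 of 25 cases, with 1 lower and a median log2 change of 0.45. Egr2 rose from 9.98 and 8.63 to 25.8 and 24.3 CPM, by 1.43 (adjusted p 1.62e-05). Junb, a partner in AP-1 dimers, rose from 88.99 and 73.9 to 150.02 and 118 CPM, by 0.72 (adjusted p 0.00539), and Cebpd from 16.9 and 16.5 to 29.98 and 28.7 CPM, by 0.81 (adjusted p 0.00673); Junb lost its call without control library 2 (adjusted p 0.0532), Cebpd without either control library (adjusted p up to 0.063), and 15% of Cebpd's exon bases overlap Spidr on the opposite strand. Cebpg fell from 129 and 123 to 101 and 114 CPM, at a log2 change of −0.22 (adjusted p 0.0338), a call lost without OSM library 1 or either control library (adjusted p up to 0.353). Without OSM library 1, 9 members were called higher, and without control library 2, 8. Genes induced by, and restraining, growth factor receptors through the MAP kinases rose in 11 of 31 cases and fell in 2. Errfi1, an inhibitor of the EGF receptor, rose from 33.4 and 32.6 to 69.2 and 64.1 CPM, by 1.01 (adjusted p 8.6e-06), and the receptor gene Egfr from 23.6 and 24.8 to 44.2 and 45.9 CPM, by 0.90 (adjusted p 1.63e-05). The phosphatases of MAP kinases Dusp4 and Dusp5 rose by 0.66 (adjusted p 1.02e-05) and 0.78 (adjusted p 0.000883). Without OSM library 1 the 11 became 6, and without OSM library 2 they became 7. Dusp5 overlaps a gene on the opposite strand over 22% of its exon bases.

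Acute-phase and complement genes had the highest median of the 49 lists, a log2 change of 1.57 over 20 tested members, with 12 called higher, each by at least 2-fold, and 2 lower. The list holds 35 genes, and those not tested had too few counts for the filter. A gene near absent in control passes that filter only where a treated group raises it, so the filter may lift this median and share. Many of them were close to absent in control myotubes. A2m, a broad protease inhibitor, had 1 and 3 counts in the control libraries and 34 and 54 with OSM, a log2 change of 4.37 (adjusted p 5.73e-05). Serpina3m had 1 and 6 counts against 47 and 51, and Serpina3i 6 and 3 against 45 and 42, changes of 3.76 (adjusted p 0.000129) and 3.24 (adjusted p 8.1e-05). These 3 genes rested on few counts, at most 54 in a library, and in control each stayed under the filter's 10 counts. They could enter the test only through treated groups where they were higher. In the complement system, the called members included C3, whose product is the centre of the cascade, with a log2 change of 2.48, and the proteases of its first step C1s1, C1ra and C1rl with 2.22, 1.86 and 1.07. Saa3, a serum amyloid A gene, changed by 2.05, Pros1, the anticoagulant protein S, by 1.68, and Cp, the copper carrier caeruloplasmin, by 1.47; these 7 genes fall outside the rule for naming and were chosen after their values were seen. Summed over the list, levels were 150.2 and 193 CPM in the control libraries and 486 and 511 CPM with OSM. Lbp and Cd59a were the members called lower, and Cd59a lost its call in 6 of the 9 alternative fits. Serpina3m and Serpina3i share 19.1% and 15.4% of their 50-base stretches with other members of the Serpina3 family, so part of their counts may belong to those.

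Of the 16 promoters of this list in the RefSeq table, 4 held TTCNNNGAA. The promoters of Serpina3i, at chr12:104262872-104263171 on the plus strand, and Pros1, at chr16:62854057-62854356 on the plus strand, are printed, chosen after the values were seen, so that the motif can be compared with that of Socs3; capitals mark it, 102 and 92 bases before the start.
Serpina3i: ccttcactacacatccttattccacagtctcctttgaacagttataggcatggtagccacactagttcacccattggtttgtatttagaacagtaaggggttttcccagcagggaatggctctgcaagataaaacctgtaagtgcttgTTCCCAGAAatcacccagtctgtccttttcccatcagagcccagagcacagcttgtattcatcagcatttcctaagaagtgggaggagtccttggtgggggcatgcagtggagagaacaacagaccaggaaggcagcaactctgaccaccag
Pros1: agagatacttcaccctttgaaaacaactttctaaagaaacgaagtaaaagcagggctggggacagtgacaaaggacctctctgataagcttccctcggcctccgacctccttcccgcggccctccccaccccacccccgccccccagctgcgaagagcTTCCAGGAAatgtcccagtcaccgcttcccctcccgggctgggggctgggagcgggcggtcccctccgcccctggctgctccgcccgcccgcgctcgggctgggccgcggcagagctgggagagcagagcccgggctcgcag

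Serpins and the plasminogen system, which controls the protease plasmin, were more often higher than lower. Of 18 tested members 8 were called higher and 1 lower. Plat, the tissue-type plasminogen activator, rose from 41.7 and 45.9 CPM in the control libraries to 100.3 and 102 CPM with OSM, by 1.20 (SE 0.07, adjusted p 1.32e-07). Plau, the urokinase-type activator, fell from 91.7 and 96.3 to 65.6 and 62.8 CPM, at a log2 change of −0.55 (adjusted p 0.000238). Serpinf1, a secreted serpin that inhibits vessel growth, rose from 268 and 246 to 425 and 412 CPM, by 0.70 (adjusted p 2.37e-06).

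Metallothioneins, small proteins that bind zinc and copper, rose together. Mt1 stood at 149.999 and 149 CPM in the control libraries and 590.4 and 503 CPM with OSM, a change on the log2 scale of 1.87 (SE 0.15, adjusted p 2.68e-05). Mt2 was at 144 and 137 CPM in the control libraries and 752 and 666 CPM with OSM, a change of 2.33 (SE 0.16, adjusted p 1.26e-05). For both genes OSM library 1 was the higher of the 2 OSM libraries, and the control libraries lay close to each other. Mt4 had 1 and 3 counts in control and 29 and 26 with OSM, so it could enter the test only through a treated group. Of the 18 members tested in the list, which also holds zinc transporters, 9 were called higher and none lower. Mtf1, the factor that senses zinc and drives metallothionein genes, was chosen after its value was seen and was not called (adjusted p 0.998). Slc39a13, a zinc transporter of the Golgi and endoplasmic reticulum, rose from 55.1 and 54.6 to 91.7 and 84.04 CPM, by 0.68 (adjusted p 1.11e-05). In the GENCODE M21 models 73.5% of the exon bases of Mt2 overlap Gm45774 on the opposite strand, and 45.5% of its 50-base stretches are shared with it.

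Cytokine genes moved in both directions. Of 30 interleukins, growth factors and their receptors 9 were called higher and 5 lower, against 10.7% and 10.5% of all genes tested. Il33, an alarm cytokine released from damaged cells, rose from 9.396 and 9.699 CPM in the control libraries to 108 and 99.3 CPM with OSM, by 3.44 (SE 0.15, adjusted p 4.67e-08). Il13ra2, a decoy receptor for interleukin 13, rose from 0.2401 and 0.403 to 2.15 and 2.75 CPM, by 2.91 (adjusted p 4.56e-05). With 7 and 12 counts in the control libraries, Il13ra2 could enter the test only through treated groups. Vegfd, a growth factor of lymphatic vessels, rose from 6.69 and 7.75 to 26.8 and 25.1 CPM, by 1.84 (adjusted p 3.9e-07). Areg, a ligand of the EGF receptor, fell from 11.4 and 9.56 to 3.76 and 4.06 CPM, at a log2 change of −1.42 (adjusted p 2.81e-05). Gdf15 and Fgf21, stress hormones that stressed muscle releases, fell from 19.1 and 19.97 to 8.62 and 8.12 CPM and from 94.03 and 98.5 to 56.8 and 59.1 CPM, at log2 changes of −1.22 (adjusted p 0.000543) and −0.73 (adjusted p 4.91e-06). Csf1, the growth factor of macrophages, fell, with a log2 change of −0.52 (adjusted p 9.83e-05).

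Chemokines were few at these levels, with 13 of 28 tested, 4 called higher and 2 lower, against 10.7% and 10.5% of all genes tested. Cxcl10, which attracts T cells, rose from 2.19 and 1.34 to 5.44 and 6.104 CPM, by 1.71 (adjusted p 8.07e-05), and Cxcl1, which attracts neutrophils, from 11.8 and 8.42 to 19.01 and 23.7 CPM, by 1.08 (adjusted p 0.00301). Cx3cl1 fell from 83.2 and 93.97 to 32.9 and 30.3 CPM, at a log2 change of −1.49 (adjusted p 1.05e-06), and Cxcl12, which holds stem cells in their niche, from 52.7 and 63.4 to 35.1 and 32.7 CPM, at a log2 change of −0.78 (adjusted p 0.00133). The other calls, Ccl5 and Ccl7, were lost in the DESeq2 fit and without each of OSM library 1, OSM library 2 and control library 1, which left 2 chemokines called higher. In the nuclear factor kappa B and TNF receptor list, 9 of 30 members were higher and 3 lower. Tnfrsf9 rose from 2.401 and 3.79 to 10.9 and 13.5 CPM, by 1.97 (adjusted p 3.72e-05), Tnfrsf11b, the decoy receptor osteoprotegerin, from 1.89 and 2.92 to 6.94 and 7.45 CPM, by 1.58 (adjusted p 5.22e-05), and Nfkbia, the inhibitor that nuclear factor kappa B induces, from 45.6 and 42.3 to 72.7 and 67.6 CPM, by 0.67 (adjusted p 0.000244). The members called lower were Traf3, Tnfrsf10b and Cd40, and none was called without OSM library 1, OSM library 2 or control library 2. Eda2r, a receptor that has been tied to muscle wasting, was at 234 and 256 CPM in the control libraries and 231 and 251 CPM with OSM (adjusted p 0.857).

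Antiviral genes of the interferon response rose in part. Of 36 tested, 17 were called higher, 10 of them by at least 2-fold, and 2 lower, with a median log2 change of 0.26. Rsad2, the antiviral enzyme viperin, rose from 8.196 and 9.36 CPM in the control libraries to 52.2 and 67.2 CPM with OSM, by 2.77 (SE 0.13, adjusted p 2.3e-08). Ifit1, which binds viral RNA, rose from 9.19 and 9.77 to 44.5 and 54.4 CPM, by 2.38 (adjusted p 2.99e-08), and Gbp7, a guanylate-binding protein, from 7.24 and 7.05 to 25.3 and 28.7 CPM, by 1.92 (adjusted p 5.35e-08). Bst2 fell from 26.2 and 18.1 to 12.03 and 12.9 CPM, at a log2 change of −0.83 (adjusted p 0.0117). Ifi44 was called lower as well, from 6.69 and 1.75 CPM in control to 0.479 and 0.805 CPM with OSM, with the control libraries far apart. The calls of Bst2 and Ifi44 were lost in 4 and 6 of the alternative fits, and no member was called lower without OSM library 1, OSM library 2 or control library 1, while without control library 2 there were 6. Without OSM library 2, 10 members were called higher. Genes that present antigen on MHC class I stayed near the background, with 3 of 20 called higher and 2 lower. H2-T23 and H2-K1 rose by 0.83 (adjusted p 8.77e-05) and 0.62 (adjusted p 0.000483), and Calr, described below, was also called higher. The members called lower were Tap1 and H2-D1, with log2 changes of −0.70 and −0.44. Without OSM library 1 Tap1 changed by −0.52, and without control library 1 H2-D1 changed by −0.26. Gbp7, H2-T23 and H2-D1 share 12.8%, 16% and 14.3% of their 50-base stretches with relatives.

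The genes of the extracellular matrix were called in both directions. Of 40 collagens and matrix glycoproteins 10 were called higher and 13 lower, and the median log2 change was −0.03. Spp1, the secreted phosphoprotein osteopontin, rose from 1567 and 1608 CPM in the control libraries to 5019.6 and 4799 CPM with OSM, by 1.63 (SE 0.06, adjusted p 5.08e-09). Tnc, tenascin C of remodelling tissue, rose from 181 and 131 to 331 and 301 CPM, by 1.02 (adjusted p 0.000435), and Vcan, the proteoglycan versican, from 181 and 170.2 to 346 and 357 CPM, by 1.002 (adjusted p 3.18e-07). Col4a1 and Col18a1, both collagens of basement membranes, fell, Col4a1 from 542 and 496 to 252 and 265 CPM, at a log2 change of −1.01 (adjusted p 3.16e-06), and Col18a1 from 618 and 619.7 to 299.8 and 315 CPM, at a log2 change of −1.01 (adjusted p 1.1e-05). Col6a3, a chain of the microfibrils around muscle fibres, fell from 405 and 299 to 155 and 169 CPM, at a log2 change of −1.12 (adjusted p 0.000669), and in control its 2 libraries were far apart. Postn, Fbn2 and Fbln5, the matrix protein periostin and parts of elastic fibres, fell, with log2 changes of −1.71 (adjusted p 1.18e-06), −1.37 (adjusted p 0.00012) and −1.18 (adjusted p 2.99e-05). Spp1 shares 18.8% of its exon bases with Gm42793 on the same strand. The summed level of the fibroblast markers given above was higher with OSM, with 3 of 8 tested called higher and 1 lower. The 10 smooth muscle and pericyte markers summed to 606 to 738 CPM in control and 794 to 799 CPM with OSM, and of 8 tested Acta2 was called higher and Rgs5, Pdgfrb and Tagln lower. The part of these cells in the matrix changes was not tested.

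Enzymes that cut or crosslink the matrix, and their inhibitors, were more often higher: 12 of 26 members, with 3 lower. Timp1 and Timp3, inhibitors of metalloproteinases, rose from 75.7 and 65.98 to 254 and 242 CPM and from 113 and 99.5 to 390.4 and 357 CPM, by 1.81 (SE 0.07, adjusted p 5.08e-09) and 1.82 (SE 0.12, adjusted p 3.57e-06). Lox, the lysyl oxidase that crosslinks collagen and elastin, rose from 358 and 349.5 to 1193 and 1143 CPM, by 1.72 (SE 0.10, adjusted p 1.25e-07). Its relatives Loxl2, Loxl3 and Loxl1, chosen after their values were seen, were called higher as well, with log2 changes of 1.61, 1.05 and 0.47. Mmp2, a gelatinase, fell from 99.6 and 122 to 51.9 and 57.3 CPM, at a log2 change of −1.02 (adjusted p 0.00236). Timp3 overlaps Syn3 on the opposite strand over 21.3% of its exon bases, and 36.3% of its 50-base stretches occur in other gene models.

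Genes of dividing cells had the highest share of called members of the 49 lists. Of 53 mitosis and kinetochore genes tested, 52 were called lower with OSM, 49 of them by at least 2-fold, and none was called higher, with a median log2 change of −1.81. Summed over the list, levels were 2579.8 and 3006 CPM in the control libraries and 874 and 992 CPM with OSM, and they were 2039.7 and 1890.1 CPM with LIF and 2469.7 and 2619 CPM with IL6. Mki67, the marker of cycling cells, fell from 260.05 and 300.5 to 62.5 and 75.5 CPM, at a log2 change of −2.02 (SE 0.09, adjusted p 2.39e-08). Cenpe and Cenpf, motor and scaffold proteins of the kinetochore, fell from 49.8 and 55.2 to 10.8 and 13.4 CPM and from 81.9 and 97.7 to 17.98 and 23.7 CPM, at log2 changes of −2.11 (adjusted p 2.43e-08) and −2.10 (adjusted p 5.26e-07). Cdc25c, the phosphatase that lets cells enter mitosis, fell from 6.45 and 7.32 to 1.81 and 1.27 CPM, at a log2 change of −2.16 (adjusted p 1.9e-05), and 12.7% of its exon bases overlap Gm3550 on the opposite strand. The 1 member outside the call was Pttg1, the separase inhibitor securin, with a log2 change of 0.21 (adjusted p 0.193). Of the 12 largest falls, Ckap2l and Nsl1 of the spindle and kinetochore, Pbk and Shcbp1, a kinase and an adaptor of dividing cells, and Esco2, which acetylates cohesin, belong with this group. Ckap2l fell from 41.9 and 52.6 to 9.47 and 11.2 CPM and Esco2 from 31.6 and 38.9 to 7.35 and 8.48 CPM, at log2 changes of −2.19 (adjusted p 1.27e-07) and −2.15 (adjusted p 1.02e-07). Without any 1 of the 4 libraries, and with DESeq2, the count called lower was again 52.

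DNA replication genes fell with them, 42 of 46 tested, none higher, with a median log2 change of −0.87. Their summed levels were 1311 and 1419 CPM in the control libraries and 809 and 827 CPM with OSM. Pole, the leading-strand polymerase, fell from 22.4 and 23.7 to 5.61 and 5.94 CPM, at a log2 change of −1.999 (SE 0.10, adjusted p 2.94e-08). Mcm5, a part of the helicase that opens the DNA, fell from 23.2 and 22.7 to 6.22 and 6.24 CPM, at a log2 change of −1.88 (SE 0.10, adjusted p 5e-08), and Tk1, thymidine kinase, from 22.8 and 26.8 to 6.94 and 6.88 CPM, at a log2 change of −1.84 (adjusted p 1.2e-07). Top2a, the topoisomerase that untangles replicated DNA, is counted in the mitosis list and not in this one. It fell from 292 and 353 to 82.3 and 106 CPM, at a log2 change of −1.78 (adjusted p 4.49e-06). The members not called were Gmnn, Gins4, Pole2 and E2f1, at log2 changes of −0.19, −0.23, 0.27 and −0.06. Of the S-phase histone list 4 of 17 were lower, with H2afx, which overlaps another gene model over 10.2% of its exon bases, falling from 25.2 and 28.6 to 13.2 and 13.4 CPM; the libraries were made from poly(A) RNA, which most replication-dependent histone mRNAs lack.

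Repair of broken and crosslinked DNA by homologous recombination and the Fanconi pathway followed, with 25 of 42 genes lower and 1, Mus81, higher. Polq, the polymerase of an alternative end-joining route, fell from 11.2 and 10.1 to 1.74 and 2.05 CPM, at a log2 change of −2.49 (SE 0.17, adjusted p 3.9e-07). Fanci fell from 10.8 and 10.7 to 1.98 and 2.48 CPM, at a log2 change of −2.27 (adjusted p 3.66e-07), Fanca from 7.06 and 8.36 to 1.68 and 1.84 CPM, at a log2 change of −2.13 (adjusted p 7.62e-06), and the helicase Pif1 from 5.08 and 5.84 to 0.821 and 0.872 CPM, at a log2 change of −2.68 (adjusted p 3.39e-06). Brca1 and Exo1, chosen after their values were seen, were called lower, with log2 changes of −1.56 and −2.01. The damage sensors Atm and Rad50, also chosen after their values were seen, were not called. They changed by −0.04 (adjusted p 0.784) and −0.16 (adjusted p 0.159). Fanci overlaps Polg over 16% and Fanca overlaps Zfp276 over 10.5% of its exon bases, each on the opposite strand, and the call of Mus81 was lost without OSM library 1, OSM library 2 or control library 2 (adjusted p up to 0.118).

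The promoters of Mcm5, Orc1 and Cenpf are shown because they hold short sequences found near genes of the cell cycle: the E2F site TTTNNCGC, searched on both strands, and the cell cycle homology region TTTGAA, also on both strands. They lie at chr8:75109259-75109558 on the plus strand, chr4:108579204-108579503 on the plus strand and chr1:189688037-189688336 on the minus strand of GRCm38.p6, and capitals mark the motifs. Mcm5 holds a pair of overlapping E2F matches, beginning 153 and 149 bases before the start, Orc1 has 1 at 27 bases before it, and in Cenpf the TTTGAA lies 2 bases after the start.
Mcm5: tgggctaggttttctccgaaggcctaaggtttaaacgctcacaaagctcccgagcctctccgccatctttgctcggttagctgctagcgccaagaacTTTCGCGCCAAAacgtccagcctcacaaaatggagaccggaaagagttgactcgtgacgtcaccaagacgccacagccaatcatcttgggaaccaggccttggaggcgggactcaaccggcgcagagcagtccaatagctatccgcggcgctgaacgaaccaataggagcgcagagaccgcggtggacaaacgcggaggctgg
Orc1: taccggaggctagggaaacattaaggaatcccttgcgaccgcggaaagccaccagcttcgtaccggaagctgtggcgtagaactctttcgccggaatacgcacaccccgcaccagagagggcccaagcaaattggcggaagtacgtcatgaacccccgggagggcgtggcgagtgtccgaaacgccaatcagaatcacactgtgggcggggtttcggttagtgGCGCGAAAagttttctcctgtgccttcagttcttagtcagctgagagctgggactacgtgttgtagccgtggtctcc
Cenpf: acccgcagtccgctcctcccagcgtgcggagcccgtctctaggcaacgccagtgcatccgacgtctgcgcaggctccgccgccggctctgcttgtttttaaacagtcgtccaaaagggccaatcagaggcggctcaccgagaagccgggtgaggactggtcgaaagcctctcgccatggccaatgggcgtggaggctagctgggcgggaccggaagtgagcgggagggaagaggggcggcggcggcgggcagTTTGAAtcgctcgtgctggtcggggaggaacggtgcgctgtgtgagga
The E2F site was in 17 of 43 promoters of the replication list (39.5%), against 1134 of 14253 of all genes tested (7.96%) and 191 of 1622 of genes called lower (11.8%). TTTGAA was in 32 of 49 promoters of the mitosis list (65.3%), against 12.1% of all genes tested, 17.2% of those called lower and 27.0% of those called lower by at least 2-fold. TTTGAA was added to the search after the values were seen, and these shares describe the letters only.

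Regulators of the G1 phase were called in both directions. Of 23 tested, 3 were higher and 6 lower, against 10.7% and 10.5% of all genes tested, and none changed 2-fold. Ccnd1, cyclin D1, fell from 122 and 112 CPM in the control libraries to 65.5 and 70.2 CPM with OSM, at a log2 change of −0.79 (SE 0.08, adjusted p 1.47e-05), while Ccnd2, cyclin D2, rose from 162 and 145 to 213 and 214 CPM, by 0.48 (SE 0.06, adjusted p 0.000137). Cdkn1a, the inhibitor p21 that holds myotubes out of the cycle, was at 1239 and 1318 CPM in the control libraries and 1378 and 1286 CPM with OSM (adjusted p 0.577), and Cdkn1b, the inhibitor p27, rose from 145 and 162 to 201 and 195 CPM, by 0.37 (adjusted p 0.00201). The 6 lower became 2 without OSM library 1 and 3 without OSM library 2. Ccnd1 overlaps a gene on the opposite strand over 23.4% of its exon bases. Myoblasts and satellite cells are the muscle cells able to divide. Of 7 of their markers tested, Myf5, Pax7 and Itga7 were called higher and none lower, with log2 changes from −0.93 to 0.82. Itga7 also belongs to the list of the dystrophin complex. The 9 markers summed to 929.7 to 946 CPM in control and 1096 to 1107 CPM with OSM. The part of these cells in the falls of cell division genes was not tested. Pax7 rose from 45.1 and 45.01 to 61.1 and 57.3 CPM, by 0.39 (adjusted p 0.000925). Myf5 and Itga7 lost their calls without OSM library 1, and Myf5 also without control library 1 and with DESeq2 (adjusted p up to 0.25 and 0.0775).

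**Figure D3:**
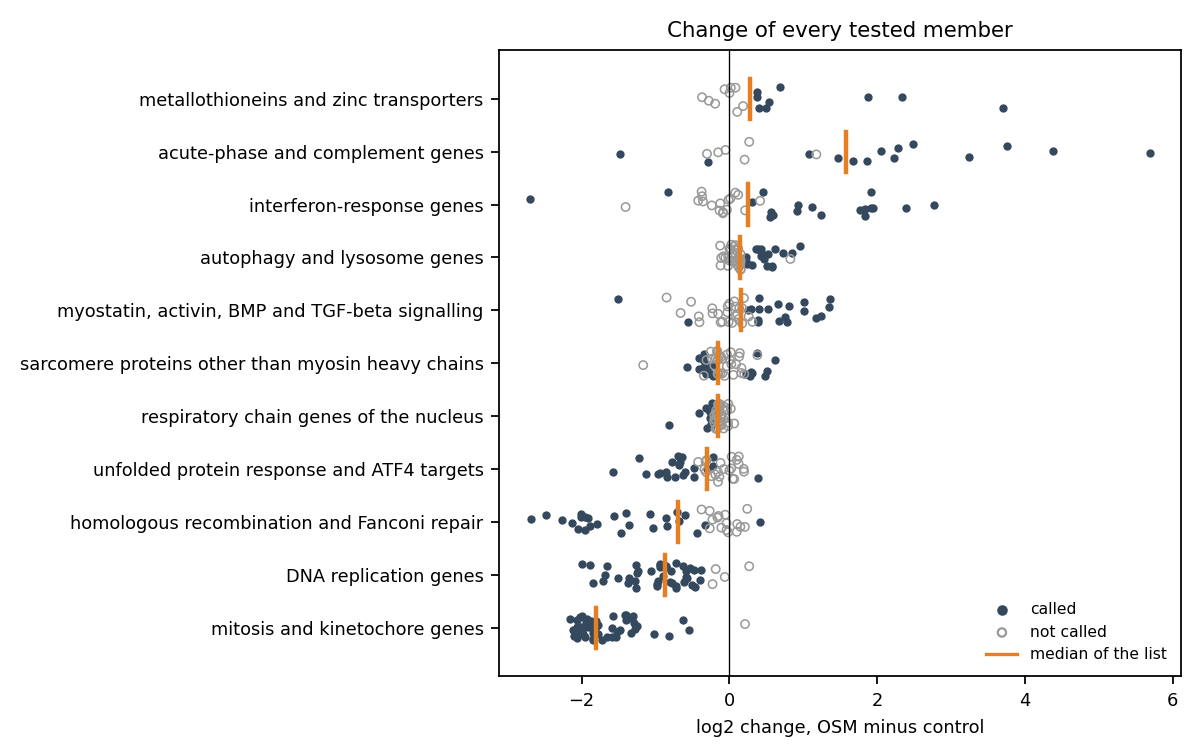
Log2 change, OSM minus control, of each tested member of 11 gene lists; dark points passed the test, open points did not, and the orange line is the median of the list. The mitosis list lies furthest to the left, with a median of −1.81, and the acute-phase list furthest to the right, with a median of 1.57, while the sarcomere and respiratory chain lists lie close to 0.

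Genes of the contractile apparatus were called lower more often than higher, nearly all by less than 2-fold. Of 10 sarcomeric myosin heavy chains 3 were called lower and none higher: Myh7, the slow chain, went from 1222 and 913 CPM in the control libraries to 695 and 638 CPM with OSM, a change on the log2 scale of −0.68 (SE 0.12, adjusted p 0.00199), Myh8, the perinatal chain, from 3066 and 3128 to 2666 and 2744 CPM, at a log2 change of −0.20 (adjusted p 0.0408), and Myh6, the cardiac chain, from 2.67 and 2.38 to 0.991 and 1.51 CPM, at a log2 change of −1.01 (adjusted p 0.0129). Myh3, the embryonic chain, was at 7883 and 7775 CPM in the control libraries and 6757 and 6683 CPM with OSM, with an adjusted p of 0.0511, and Myh4, a fast adult chain, did not pass the test either (adjusted p 0.744). Myh6 lost its call with DESeq2 and without OSM library 1 or control library 1, and Myh8 without any 1 of the 4 libraries (adjusted p up to 0.159 and 0.264). Myosin heavy chain genes share sequence, 28.2% of the 50-base stretches of Myh7 and 21.4% of those of Myh8.

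Of 55 other sarcomere genes, 15 were lower and 8 higher, none by 2-fold. Csrp3, a sensor protein of the Z disc, fell from 308 and 250.2 to 191 and 184 CPM, at a log2 change of −0.57 (adjusted p 0.00247). Tnnc1, the slow and cardiac troponin C, fell from 2399.6 and 2116 to 1731 and 1676 CPM, at a log2 change of −0.41 (adjusted p 0.00135), and Myl4, an embryonic myosin light chain, from 3504 and 2991 to 2468 and 2429 CPM, at a log2 change of −0.41 (adjusted p 0.00266). Tpm4, a non-muscle tropomyosin, rose from 303 and 304 to 469 and 466 CPM, by 0.62 (adjusted p 1.15e-05), and Pdlim3, of the Z disc, from 293 and 289 to 379 and 374 CPM, by 0.37 (adjusted p 0.00153). The counts depended on the libraries: the 15 became 6 without OSM library 1, 3 without OSM library 2 and 8 without control library 1, and the 8 became 4, 4 and 5. The summed level of the list was 52083 and 48842 CPM in the control libraries and 44252 and 43978 CPM with OSM. It was 47901 and 44953 CPM with LIF and 44490 and 47624 CPM with IL6, so the OSM sums lay close to the lowest of these. Tpm4 shares 16.1% of its 50-base stretches with other gene models.

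The regulators of myogenesis were split. Of 28 tested, 6 were higher and 6 lower. Myog, the factor that drives differentiation, fell from 1252 and 1013 CPM in the control libraries to 819 and 752 CPM with OSM, at a log2 change of −0.53 (SE 0.09, adjusted p 0.000748), and Mef2a, its partner, from 384 and 368 to 283 and 296 CPM, at a log2 change of −0.38 (adjusted p 0.000568). Myod1, which commits cells to muscle, was at 118 and 95.1 CPM in the control libraries and 115 and 107 CPM with OSM (adjusted p 0.76). Id2, an inhibitor of these factors, rose from 39.6 and 33.9 to 79.8 and 67.9 CPM, by 1.01 (SE 0.13, adjusted p 0.000309). Each count of 6 became 3 without OSM library 1, as did the higher count without control library 1 and the lower count without OSM library 2. Of 25 fusion and adhesion genes, 5 were higher and 4 lower, against 10.7% and 10.5% of all genes tested. Itga4, an integrin subunit, rose from 15.6 and 15.04 to 23.8 and 25.4 CPM, by 0.69 (adjusted p 8.33e-05). The cadherin Cdh11 fell from 30.3 and 31.2 to 16.9 and 17.7 CPM, at a log2 change of −0.83 (adjusted p 9.1e-06). Of the 50-base stretches of Itga4, 10.9% occur elsewhere. Without OSM library 1 these counts were 3 and 2, without OSM library 2 they were 3 and 1, and without control library 1, 2 were lower.

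The machinery of excitation and contraction stayed near the background of all genes. Ion channels had 2 of 25 members higher and 1, Cacna1g, lower, calcium release genes of the sarcoplasmic reticulum 1 of 26 higher and 2 lower, genes of the neuromuscular junction 2 of 24 higher and 2 lower, and the dystrophin complex 4 of 28 higher and 1 lower. Sln, sarcolipin, a small inhibitor of the calcium pump, rose from 3.81 and 5.57 to 10.7 and 10.3 CPM, by 1.16 (SE 0.18, adjusted p 0.000579). Mcu, the calcium channel of mitochondria, fell from 222 and 212 to 171 and 178 CPM, at a log2 change of −0.31 (adjusted p 0.0017), and Colq, which anchors acetylcholinesterase at the synapse, from 17.2 and 19.3 to 11.7 and 10.4 CPM, at a log2 change of −0.73 (adjusted p 0.000366). These small counts moved when 1 library was left out: 5 ion channels were lower without control library 2, and in the dystrophin complex none was higher without OSM library 1 and 1 without OSM library 2.

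Breakdown of muscle protein is carried out by ubiquitin ligases with the proteasome and by lysosomes. Fbxo32, the ligase atrogin-1, which is induced in many forms of wasting, rose from 55.2 and 62.7 CPM in the control libraries to 137 and 129 CPM with OSM, by 1.17 (SE 0.07, adjusted p 1.22e-07). Trim63, the ligase MuRF1, was at 67.04 and 68.9 CPM in the control libraries and 57.7 and 64.4 CPM with OSM, a log2 change of −0.15 (adjusted p 0.497). The difference between these 2 ligases was not tested. In the wider list of atrophy ligases and targets of FOXO factors, 4 of 34 members were higher and 3 lower, near the background, and Gadd45a, a stress gene that promotes fibre loss, fell from 345 and 313 to 261 and 266 CPM, at a log2 change of −0.32 (adjusted p 0.00251). Without control library 2, 8 members were called higher, and without OSM library 1 or control library 1, there was 1. The 3 lower became 1 without OSM library 1 or OSM library 2. The proteasome and ubiquitin list had 3 of 39 higher and 4 lower; the 3 became 0, 1 and 0 and the 4 became 1, 1 and 1 without OSM library 1, OSM library 2 and control library 1. Gadd45a overlaps E230016M11Rik over 19.1% of its exon bases.

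Lysosomal and autophagy genes were one-sided, with 18 of 48 called higher, none lower and a median log2 change of 0.15; none reached 2-fold. Their summed level was 8340.2 and 8539 CPM in the control libraries and 10182 and 10158 CPM with OSM. Ctsa and Ctsb, the lysosomal proteases cathepsin A and B, rose from 188 and 193 to 369 and 371 CPM and from 407 and 483 to 797 and 810.5 CPM, by 0.96 (SE 0.06, adjusted p 7.66e-08) and 0.85 (SE 0.10, adjusted p 5.22e-05). Lamp2, a main protein of the lysosome membrane, rose from 342 and 376 to 547 and 558 CPM, by 0.62 (adjusted p 1.48e-05). Further called members, chosen after their values were seen, were the proteases Ctsd, Ctsl and Ctsh and, on the autophagosome, Map1lc3b and Gabarap, with log2 changes of 0.51, 0.52, 0.46, 0.43 and 0.37. Ctsa and Ctsb overlap Pltp and Fdft1 on the opposite strand over 10.5% and 12.8% of their exon bases. Among calpains and caspases 3 of 15 rose, Casp12 from 19.5 and 19.9 to 42.7 and 43.3 CPM, Casp6 from 33.02 and 30.8 to 60.5 and 57.1 CPM and the calpain inhibitor Cast from 234 and 243 to 303 and 314 CPM, and 1 was lower, none without OSM library 1, OSM library 2 or control library 2.

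Genes of the unfolded protein response and targets of the factor ATF4, which acts when amino acids are short or proteins misfold, were more often lower. Of 43 tested, 20 were called lower and 1 higher, with a median log2 change of −0.31. Trib3, a pseudokinase that restrains AKT, fell from 136 and 107 CPM in the control libraries to 54.6 and 56.6 CPM with OSM, at a log2 change of −1.13 (SE 0.12, adjusted p 4.25e-05). Ddit3, the stress factor CHOP, fell from 125 and 126 to 56.8 and 70.9 CPM, at a log2 change of −0.97 (adjusted p 0.000299), and Asns, asparagine synthetase, from 436 and 374 to 222 and 225 CPM, at a log2 change of −0.86 (adjusted p 2.38e-06). Phgdh and Mthfd2, of serine and mitochondrial one-carbon synthesis, fell from 315 and 247 to 162 and 150.05 CPM and from 221 and 174 to 104 and 101 CPM, at log2 changes of −0.85 (adjusted p 0.000129) and −0.94 (adjusted p 1.43e-05). Gdf15 and Fgf21, given above, belong to the same list, and Atf4 itself, chosen after its value was seen, was called with a log2 change of −0.30. Calr, a chaperone of the endoplasmic reticulum, was the 1 member called higher, and it lost that call in 5 of the 9 alternative fits. Phgdh shares 63.1% of its 50-base stretches with pseudogenes.

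Antioxidant genes of the NRF2 pathway were lower in 11 of 39 cases and higher in 1. Nqo1, a quinone reductase, fell from 40.4 and 47.7 CPM in the control libraries to 12.3 and 13.2 CPM with OSM, at a log2 change of −1.79 (SE 0.17, adjusted p 3.51e-05), Slc7a11, the cystine transporter, from 31.2 and 19.3 to 9.03 and 7.95 CPM, at a log2 change of −1.57 (adjusted p 0.00211), and Aldh3a1, an aldehyde dehydrogenase, from 8.299 and 13.8 to 4.21 and 3.52 CPM, at a log2 change of −1.52 (adjusted p 0.000989). Slc7a11 is also a target of ATF4. Gpx8, a peroxidase of the endoplasmic reticulum, rose from 96.7 and 102 to 149 and 149 CPM, by 0.58 (adjusted p 2e-05). Without OSM library 2, 6 members were lower.

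Nuclear genes of the respiratory chain shifted slightly downward as a group. A fall passed the test in 13 of 52 and no rise did, 50 of the 52 had a negative log2 change, and the median was −0.15. Cox6a2, the muscle form of a cytochrome oxidase subunit, fell from 188 and 167 CPM in the control libraries to 104 and 98.1 CPM with OSM, at a log2 change of −0.81 (SE 0.08, adjusted p 5.38e-06), and Cycs, cytochrome c, from 163 and 164 to 122 and 124 CPM, at a log2 change of −0.41 (adjusted p 0.000443). The count of 13 became 6, 2, 6 and 6 without OSM libraries 1 and 2 and control libraries 1 and 2. Ppargc1a, the regulator of mitochondrial growth, was at 29.4 and 39.8 CPM in the control libraries and 31.4 and 36.4 CPM with OSM (adjusted p 0.917). Cox6a2 overlaps Itgad on the opposite strand over 10.3% of its exon bases, and Cycs shares 28.5% of its 50-base stretches with pseudogenes. The muscle marker sum given above was lower with OSM, and its part in this shift was not tested.

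Of 36 genes of mitochondrial regulation and fatty acid oxidation 4 were higher and 3 lower, near the 10.7% and 10.5% of all genes tested, with Acadm, a dehydrogenase of medium-chain fatty acids, rising from 87.3 and 100.05 to 126 and 131 CPM and Lpl, lipoprotein lipase, falling from 15.3 and 17.96 to 6.74 and 9.89 CPM, log2 changes of 0.45 (adjusted p 0.000413) and −0.998 (adjusted p 0.00334). Of 45 glycolysis, glycogen and phosphocreatine genes 7 were higher and 2 lower, against the same 10.7% and 10.5%. Ampd3, AMP deaminase 3, which is induced in wasting muscle, rose from 52.2 and 47.7 to 108 and 102 CPM, by 1.07 (SE 0.09, adjusted p 2.44e-06). Gbe1, the glycogen branching enzyme, rose from 139 and 125 to 193 and 186 CPM, by 0.52 (adjusted p 0.000284). Without OSM library 1 the 7 became 2, while the 4 became 2 without control library 1 and 9 without control library 2. Cholesterol and fatty acid synthesis had 9 of 42 lower and 2 higher, and the 9 became 2, 5 and 4 without OSM library 1, OSM library 2 and control library 1. Abca1, which exports cholesterol, rose from 5.35 and 4.93 to 15.5 and 14.7 CPM, by 1.55 (SE 0.12, adjusted p 9.21e-07), and Fads1, a desaturase, fell from 46.3 and 45.98 to 34.1 and 34.01 CPM, at a log2 change of −0.44 (adjusted p 0.000568). Ribosomal protein genes had 1 of 44 called and a range of −0.13 to 0.19 on the log2 scale, and translation and mTOR genes 3 of 35 higher and 2 lower.

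Signals of the TGF-beta family, in which myostatin and activins limit muscle mass, were more often higher than lower, 18 against 2 of 46. Inhbb, an activin subunit, rose from 13.2 and 15.3 CPM in the control libraries to 37.1 and 36.02 CPM with OSM, by 1.36 (SE 0.11, adjusted p 1.73e-06), and Bmp1, a protease that frees growth factors and processes collagen, from 58.8 and 63.5 to 159 and 153 CPM, by 1.35 (SE 0.06, adjusted p 1.81e-08). Called higher too, and chosen after their values were seen, were the other activin subunit Inhba, the receptors Tgfbr2, Acvr2b and Tgfbr1, and the inhibitors Smad7 and Fstl3, with log2 changes of 0.80, 1.01, 0.52, 0.41, 0.67 and 0.78. Ligands, receptors and inhibitors of the pathway all appear among the genes called higher. Bmp6 and Bambi were the members called lower, and neither was without OSM library 1, OSM library 2 or control library 2. The 18 became 10 without OSM library 2. Of 21 genes of the insulin-like growth factor system 6 were higher and 4 lower; beside Igfbp3, Htra3, a protease, rose from 50.96 and 52.02 to 89.9 and 86.8 CPM, by 0.78 (adjusted p 1.79e-06), and Pappa2, which cleaves binding proteins, fell from 20.6 and 21.7 to 13.3 and 15.2 CPM, at a log2 change of −0.57 (adjusted p 0.00129). Without OSM library 1 these counts were 3 and 2, and without control library 1, 3 were higher.

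**Figure D4:**
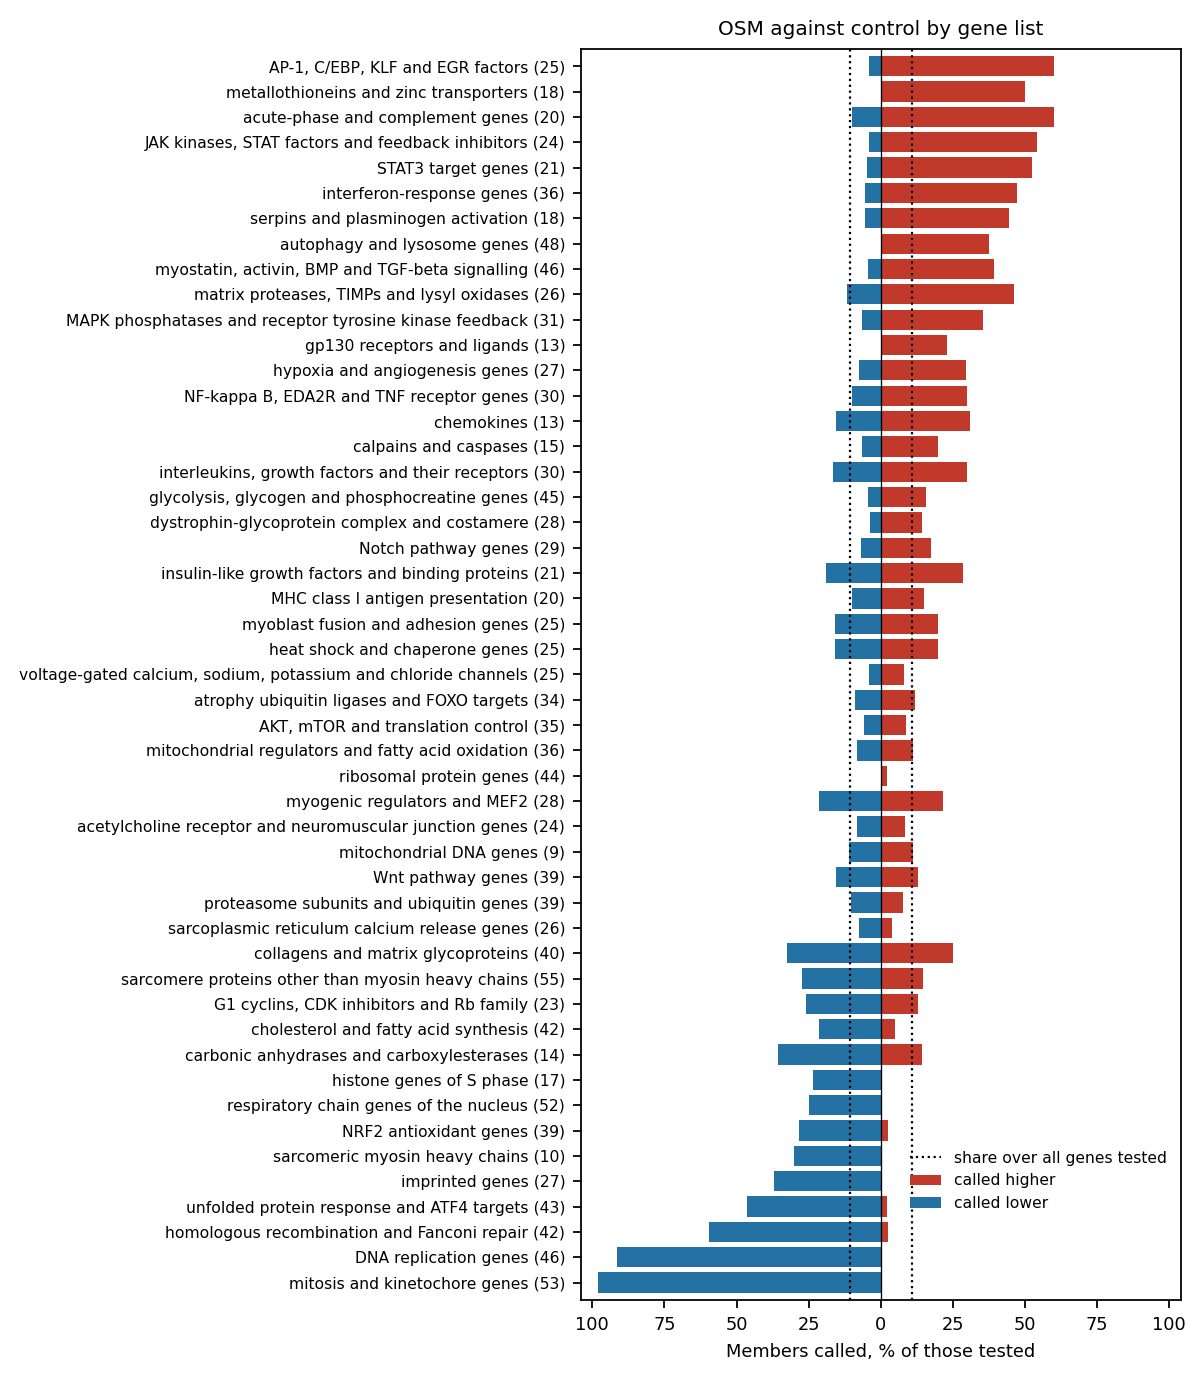
Share of the tested members of each of 49 gene lists that were called lower (blue bars, left of 0) and higher (red bars, right of 0) with OSM, with the number tested in brackets; the dotted lines mark the shares over all genes tested, 10.5% lower and 10.7% higher. Mitosis and DNA replication have the longest blue bars, and the acute-phase and AP-1 lists the longest red bars.

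OSM was also tested directly against the sister cytokines, in the same fit of all 8 libraries. It differed from LIF in 1251 of 15603 genes (8.02%) and from IL6 in 2428 (15.6%). Of the genes called against control, 1115 higher and 1023 lower also differed from IL6 in the same direction, and 0 in the other. For LIF these counts were 527 and 465, with 22 and 6 in the other direction. These tests share the OSM libraries with the test against control. Socs3 was not called in IL6 against control, at a log2 change of 0.28 (adjusted p 0.611). A fit of the OSM and LIF libraries alone called 2904 genes, and without OSM library 1 the count against IL6 was 1111 and without OSM library 2 it was 1339. In the mitosis list 51 of 53 genes were lower with OSM than with LIF and in the replication list 34 of 46, with none higher in either. Mki67 averaged 189 CPM with LIF, and OSM minus LIF was −1.45 (SE 0.09, adjusted p 3.36e-06). Lysosomal genes were higher than with LIF in 11 of 48 cases and feedback genes of the MAP kinase pathway in 11 of 31, with none lower in either; Ctsa differed by 0.44 (SE 0.05, adjusted p 0.000229) and Errfi1 by 0.78 (SE 0.10, adjusted p 0.000229). The ATF4 list was lower in 15 of 43 and higher in none, with Trib3 at 105 CPM with LIF and a difference of −0.91 (SE 0.12, adjusted p 0.000604). Spp1 averaged 1848 CPM with LIF, and differed by 1.41 (SE 0.06, adjusted p 1.93e-07), and Tnc 146 CPM, with a difference of 1.12 (SE 0.13, adjusted p 0.000666). Among protein-coding genes whose mean count reached 100, Serpinb2 and Cacna1g had the largest called differences from LIF in each direction, 4.04 (SE 0.20, adjusted p 1.81e-06) and −2.27 (SE 0.20, adjusted p 1.52e-05).

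Several genes described above did not differ between OSM and LIF beyond the threshold, which does not show that they were equal. Socs3 averaged 118 CPM with LIF, a difference of −0.10 (SE 0.06, adjusted p 0.395), and Osmr 106 CPM, a difference of −0.06 (SE 0.08, adjusted p 0.733). Ifit1 was an exception to this: at 69.3 CPM with LIF it was higher there than with OSM, a difference of −0.49 (SE 0.10, adjusted p 0.00738), whereas Rsad2 differed by −0.23 (SE 0.10, adjusted p 0.215). Ccnd1 averaged 59.4 CPM with LIF, a difference of 0.19 (SE 0.08, adjusted p 0.216), and Myog 841 CPM, a difference of −0.10 (SE 0.09, adjusted p 0.593). Scara5, a ferritin receptor, was lower with OSM than in control, from 6.996 and 8.39 to 3.11 and 4.02 CPM, at a log2 change of −1.11 (adjusted p 0.00186), and averaged 12.1 CPM with LIF, a difference of −1.76 (SE 0.19, adjusted p 7.66e-05). The counts against LIF were smaller when 1 library was left out, between 440 without LIF library 1 and 640 without OSM library 2.

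**Figure D5:**
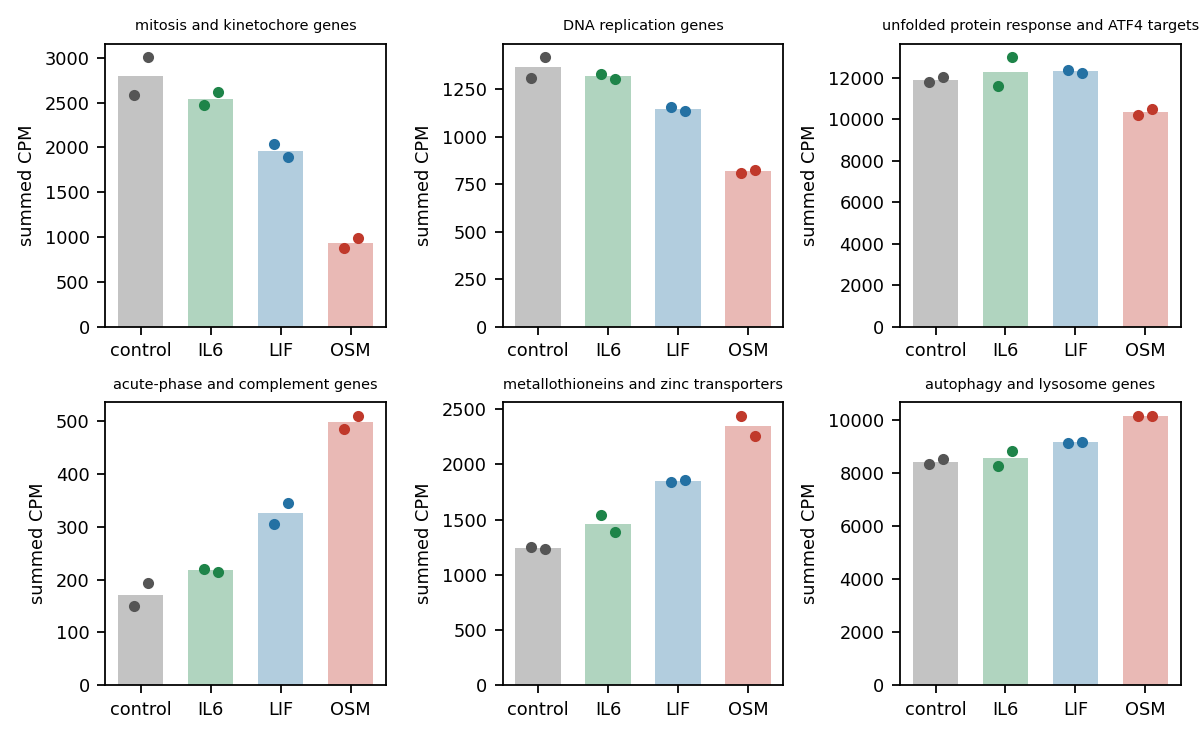
Summed CPM of the tested members of 6 gene lists in each of the 8 libraries; points are libraries, bars the mean of the 2 libraries of a group, and each y axis starts at 0. OSM has the lowest sums for the mitosis, replication and ATF4 lists and the highest for the acute-phase, metallothionein and lysosome lists.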

How the data were processed

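RNA sequencing counts were analysed for 8 libraries of mouse primary myotubes in 4 groups of 2. The deposited values are whole-number counts of reads per gene, 1 file per library. Per the labels' protocols the libraries came from a stranded mRNA kit. The submitters' processing notes name FastQC 0.11.9, MultiQC 1.12, Trim Galore 0.6.5, STAR 2.7.3a, HTSeq 0.11.1, DESeq2 1.34.0 and the build GRCm39, without roles. The strand setting of the counting is not given in the sources used here.

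The 5 summary lines of each file, 11.7% to 12.7% of reads recorded, entered neither the library totals nor any test. Genes were filtered with filterByExpr at 10 counts, which left 15603, scaled by TMM (the trimmed mean of M-values) and tested with edgeR 4.0.16 (quasi-likelihood, robust, R 4.3.3) on all 8 libraries with 4 residual degrees of freedom, and p-values were adjusted by Benjamini-Hochberg over all genes tested. Each standard error is the log2 change divided by the square root of its F statistic. The fit was tested on simulated data. DESeq2 1.42.0, RLE size factors, no filter, a fit of 2 groups only, a replicate block and leaving out each library were the alternatives.

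Gene names, exon overlap and shared 50-base stretches come from GENCODE M21 on GRCm38, and promoters from RefSeq on GRCm38.p6, so no coordinate of the authors' build is given; promoters were found for 11128 of 15595 genes with a name. The named genes are the 12 largest rises and falls among called protein-coding genes whose mean count reached 100, the 8 largest among those reaching 3000, up to 4 called members in each direction of each list, the 5 largest differences each way from LIF and from IL6, and a short set named whatever its change. The rankings by size took only genes whose libraries did not overlap between the groups compared. Other named genes are said to have been chosen after their values were seen, apart from cell type markers and members named to complete a count. The comparison and the lists were chosen with earlier results of these data known. Some genes of the lists are counted in them but not reported here by name.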

Additional observations from a re-analysis of the deposited data

How the results depend on the processing

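When 1 library was left out, OSM against control called 1613 to 2810 genes, 872 to 1441 higher and 741 to 1369 lower, where the lone library is assumed to vary like the other groups. OSM against LIF then called 440 to 640, 199 to 329 higher and 226 to 320 lower, and OSM against IL6 1111 to 2487, 604 to 1296 higher and 507 to 1191 lower. A fit of OSM and LIF alone called 2904 genes, 1454 higher and 1450 lower; the cause was not tested. A limit of 2-fold left, by construction, 761 genes against control (339 higher and 422 lower), 290 against LIF (114 and 176) and 553 against IL6 (223 and 330). With DESeq2 2721 genes were called against control, and without a filter 2913. The replicate block called 3965 against control, 1757 against LIF and 3003 against IL6; deviations of libraries with the same number correlated at 0.0738, 0.00708 and 0.0539 (Pearson r across genes), so the numbers were not taken to pair the libraries. Of 2606 alternative values of the 290 named genes, 2275 kept their side of the threshold and direction, 322 lost the call, 9 gained it and none reversed; 104 genes lost the call at least once. Of 882 alternative list counts 203 moved by more than 1.5 times. Genes of few counts, such as A2m and Mt4, are limited by depth.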

Other observations

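Among genes of low oxygen and vessel growth, 8 of 27 tested were called higher with OSM and 2 lower. For this and the other lists of this section, the shares over all genes tested were 10.7% higher and 10.5% lower. Car12, a carbonic anhydrase of the cell surface, rose from 14.2 and 14.97 CPM in the control libraries to 63.9 and 60.3 CPM with OSM, by 2.09 (SE 0.08, adjusted p 5.08e-09), and Ndrg1, a stress-induced gene, from 843 and 706 to 1410.2 and 1321 CPM, by 0.82 (adjusted p 8.92e-06). The 8 became 3, 5 and 5 without OSM library 1, OSM library 2 and control library 2. Carbonic anhydrases and carboxylesterases as a list had 2 of 14 higher and 5 lower, with Car8 falling from 9.67 and 13.2 to 5.06 and 4.796 CPM, at a log2 change of −1.21 (adjusted p 0.000177); the 5 became 2, 3 and 3 without OSM library 1, OSM library 2 and control library 1.

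Imprinted genes, which are expressed from 1 parental copy and many of which regulate growth, were lower in 10 of 27 cases and higher in none, and the 10 became 5 without OSM library 1. Mest fell from 58.8 and 72.1 to 23.8 and 27.4 CPM, at a log2 change of −1.35 (SE 0.12, adjusted p 7.11e-06), and Meg3, a non-coding RNA, from 4.39 and 3.99 to 2.12 and 2.15 CPM, at a log2 change of −0.97 (adjusted p 0.00267); Mest overlaps Copg2 on the opposite strand over 23% of its exon bases. In the Notch list 5 of 29 were higher, 3 without OSM library 1 or OSM library 2, and 2 lower. Jag1, a Notch ligand, fell from 21.9 and 24.7 to 8.0003 and 11.9 CPM, at a log2 change of −1.23 (SE 0.14, adjusted p 5.62e-05), and averaged 22.2 CPM with LIF, a difference of −1.16 (SE 0.14, adjusted p 0.000279). In the Wnt list 5 of 39 were higher and 6 lower, near the 10.7% and 10.5% of all genes tested. Of its members Sfrp4, a secreted Wnt inhibitor, rose from 1.06 and 1.48 to 5.74 and 7.24 CPM, by 2.35 (adjusted p 5.19e-06), and Wnt11 from 8.81 and 8.63 to 23.97 and 20.9 CPM, by 1.36 (adjusted p 1.12e-05). The 6 became 1, 1 and 3 without OSM library 1, OSM library 2 and control library 2. Heat shock and chaperone genes had 5 of 25 higher and 4 lower, with Hspb6, a small heat shock protein of muscle, rising from 15.2 and 15.4 to 28.2 and 24.1 CPM, by 0.77 (adjusted p 6.41e-05), and Hspd1, the mitochondrial chaperonin, falling from 277 and 253 to 196 and 213 CPM, at a log2 change of −0.37 (adjusted p 0.00118) (44.8% of its 50-base stretches occur in other gene models); the 5 became 1 without OSM library 1 and 3 without control library 1, and the 4 became 2 without OSM library 2.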
